A study of Mus musculus with 12 samples.

Results

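The genes described here encode 10 antioxidant enzymes of the gut epithelium: the superoxide dismutases Sod1 and Sod2, the glutathione peroxidases Gpx1, Gpx2 and Gpx4, catalase (Cat), peroxiredoxin 5 (Prdx5), thioredoxin reductase 1 (Txnrd1), the quinone reductase Nqo1 and heme oxygenase 1 (Hmox1). They are enzymes that remove reactive oxygen species or keep the cell in a reduced state, and were chosen with earlier results of these data known. Of these genes 10 of 10 were found among the 14244 genes of the expression table. Poly(A) RNA was sequenced from gut epithelial cells of male littermates of 8 weeks on a C57BL/6 background, with 1 library for each mouse. There were 5 wild-type (WT) libraries and 7 libraries labelled Chd8L+/-, from mice that carry 1 copy of Chd8 with a deletion of exons of the long isoform in every tissue and not in the epithelium alone. Chd8 encodes a chromatin remodeler and is a risk gene for autism. The cells were shaken off pieces of intestine, the labels do not state which region they came from, and no agent was given.

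Gene counts summed to between 15691662 and 20761315 reads per library. Counts over the whole Chd8 gene ranged from 823 to 1050 in WT and from 1084 to 1483 in the libraries labelled Chd8L+/- (log2 fold change 0.44, SE 0.101, limma adjusted p = 0.121). Chd8 was therefore not lower in the labelled heterozygotes, but a count over the whole gene does not separate the deleted exons, so it does not check the labels. In the text below, Chd8L+/- means the libraries that carry this label. WT replicate 2 stood apart from the rest of its group: on the first principal component, which held 39.7% of the variance, it lay at 41.0, among the Chd8L+/- libraries (0.26 to 42.7) and away from the other WT libraries (-67.5 to -26.2). The difference of each of the 10 genes is therefore given with and without this library. It was singled out from these same data. Leaving out a WT library that lies among the Chd8L+/- libraries tends to widen the difference between genotypes. The adjusted p-values without it are therefore a description and not a further test. Of the markers of epithelial cells, 8 of 8 were measured, and their summed normalized counts were between 161862 and 296769 per library. Sums were 2259 to 6801 for T cell markers, 250 to 4228 for B and plasma cell markers and 1237 to 3884 for markers of macrophages and dendritic cells. Markers of stromal and endothelial cells summed to 50 to 1600.

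The enzymes act in sequence. Superoxide dismutases turn superoxide into hydrogen peroxide, which catalase, glutathione peroxidases and peroxiredoxins then reduce to water; thioredoxin reductase and glutathione reductase return the electrons at the expense of NADPH. Nqo1 reduces quinones without releasing semiquinone radicals, and Hmox1 splits heme into biliverdin, iron and carbon monoxide. The intestinal epithelium meets oxidants from food, microbes and its own oxidases, and Gpx2 is known as the glutathione peroxidase typical of the gut. Several of these genes are known targets of NRF2, a transcription factor that is held back by KEAP1 and released by oxidants and electrophiles.

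Gpx1, Gpx2, Gpx4 and Txnrd1 encode selenoproteins, in which a UGA codon that would normally end translation is read as selenocysteine, the catalytic residue. The coding sequence around that codon is shown because it is the feature that sets these 4 enzymes apart from the other members, each of which had 0 annotated selenocysteine codons. The windows span 27 bases of GRCm38 (the build that mm10 names), written 5′ to 3′ on the coding strand with the selenocysteine codon in capitals. They lie in coding exons at codon 47 of Gpx1 (chr9:108339439-108339465, plus strand), codon 40 of Gpx2 (chr12:76795244-76795270, minus strand), codon 73 of Gpx4 (chr10:80054725-80054751, plus strand) and codon 498 of Txnrd1 (chr10:82896025-82896051, plus strand).
Gpx1: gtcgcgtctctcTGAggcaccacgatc
Gpx2: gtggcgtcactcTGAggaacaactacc
Gpx4: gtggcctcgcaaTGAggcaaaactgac
Txnrd1: cagtctggctgcTGAggttaagcccca
In the glutathione peroxidases the codon lies early in the reading frame, of 201 codons in Gpx1, 190 in Gpx2 and 197 in Gpx4. In Txnrd1 it is the last but one of 499 codons, so its window runs through the stop codon into the bases after it.

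Gpx2 had the highest level of the 10 enzymes in both genotypes. Levels were compared between genes as normalized counts per kilobase of the principal transcript, a scale that takes out transcript length. In WT the mean level per kilobase was 23123 ± 12753 (SD, n = 5) for Gpx2, followed by 7911 ± 2806 for Prdx5, 5947 ± 585 for Sod1, 4635 ± 1674 for Gpx4 and 2718 ± 1062 for Gpx1. Lower levels were found for Txnrd1 (1617 ± 285), Cat (1291 ± 226), Sod2 (272.9 ± 24.5), Nqo1 (258.9 ± 81.7) and Hmox1 (39.4 ± 30.5). Between neighbours in this order, the library ranges did not overlap only from Cat to Sod2 and from Nqo1 to Hmox1; the other neighbours in WT overlapped. Hmox1 was low enough to be near the limit of the method, with 5 to 124 reads per library, far fewer than any other member.

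In Chd8L+/- libraries Gpx2 again came first, at 8921 ± 2906 per kilobase (SD, n = 7), followed by Sod1 at 4486 ± 464, Prdx5 at 4031 ± 661, Gpx1 at 3309 ± 1144 and Gpx4 at 2776 ± 833. Cat (1461 ± 515) and Txnrd1 (1458 ± 260) were level with each other, and Nqo1 (345 ± 102), Sod2 (221.0 ± 44.3) and Hmox1 (11.1 ± 5.38) came last. Neighbouring ranges were separate from Gpx4 to Cat, from Txnrd1 to Nqo1 and from Sod2 to Hmox1. The place of a gene in this order depends on the length used: with the length of all its annotated exons in place of the principal transcript, Sod1 in WT was at 960 per kilobase and Gpx2 at 7657, as the annotated exons of both genes cover several times the length of the principal transcript.

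**Figure D1:**
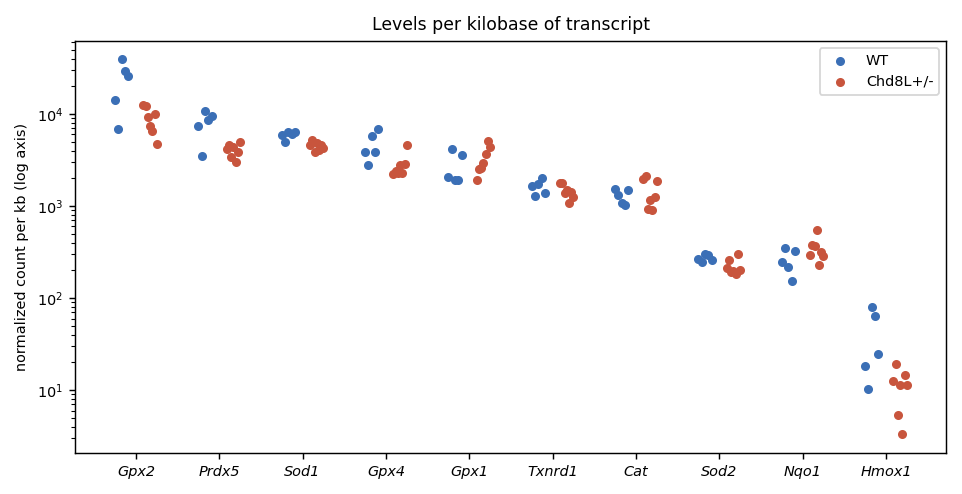
Normalized counts per kilobase of the principal transcript (log axis) for the 10 genes, ordered by their mean in WT; each point is 1 library, with WT in blue (5 libraries) and libraries labelled Chd8L+/- in red (7 libraries). Gpx2 is highest in both genotypes and Hmox1 lowest, and the red points lie mostly below the blue ones for Gpx2, Prdx5, Sod1, Gpx4 and Hmox1 but not for Gpx1, Cat or Nqo1.

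The level of the 10 genes together, as the sum of normalized counts per kilobase, was 37065, 25367, 67465, 53349 and 55825 in WT replicates 1 to 5. Among Chd8L+/- libraries it was lowest at 21862, with a median of 26479 and a highest value of 31330. WT replicate 2 had the lowest WT sum and fell within the Chd8L+/- range, whereas the other 4 WT libraries were above every Chd8L+/- library. In each WT library Gpx2 was the largest single part of the sum.

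Mean normalized counts in Chd8L+/- were 28.2% of those in WT for Hmox1, 38.6% for Gpx2, 51.0% for Prdx5, 59.9% for Gpx4, 75.4% for Sod1, 81.0% for Sod2 and 90.1% for Txnrd1. They were 113% for Cat, 122% for Gpx1 and 133% for Nqo1. None of these differences passed the adjusted threshold with all 12 libraries. Those of Gpx2, Gpx4, Sod1, Hmox1 and Prdx5 passed it once WT replicate 2, picked out from these same data, was left out. Of the 12807 genes then tested, 13.6% were called lower and 14.0% higher.

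Genotypes were compared on log2(normalized count + 1) with limma across the 12808 genes with a mean of at least 10, with Benjamini-Hochberg adjustment over these genes; all 10 members passed this filter. With all 12 libraries 0 members reached an adjusted p of 0.05 or less, where 0.0234% of all genes tested did. At a p of 0.05 or less before adjustment (the unadjusted threshold), 6 members were lower in Chd8L+/- (Gpx2, Gpx4, Sod1, Sod2, Hmox1 and Prdx5), where 11.8% of all genes tested were lower, and 0 members were higher, where 12.5% of all genes were. The exact two-sided permutation test of single genes, over 792 arrangements, gave p of 0.05 or less for 6 members. It did so for 2765 of the 12808 genes tested. Its smallest possible p is 0.00126, and over all genes its smallest adjusted p was 0.198. The groups overlapped for each of the 10 members, while for 0.515% of all genes tested they did not. The median log2 fold change of the members was -0.36, beside 0.01 for all genes tested.

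Without WT replicate 2, 5 members passed the adjusted threshold in limma and all 5 were lower in Chd8L+/- (Gpx2, Gpx4, Sod1, Hmox1 and Prdx5), where 13.6% of the 12807 genes then tested were called lower; 0 members were called higher, where 14.0% of genes were. DESeq2 on the recovered reads of all 12 libraries called 5 members lower, where 4.61% of genes with an adjusted p were called lower, and edgeR called 0 members. The 5 members called by DESeq2 and the 5 called without WT replicate 2 shared 5 genes. WT replicate 2 was picked out from these same data, and without it the genes called in limma rose from 3 to 3534. As the RNA came from bulk cells, fewer cells of a type and less RNA per cell cannot be told apart for any of these genes.

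**Figure D2:**
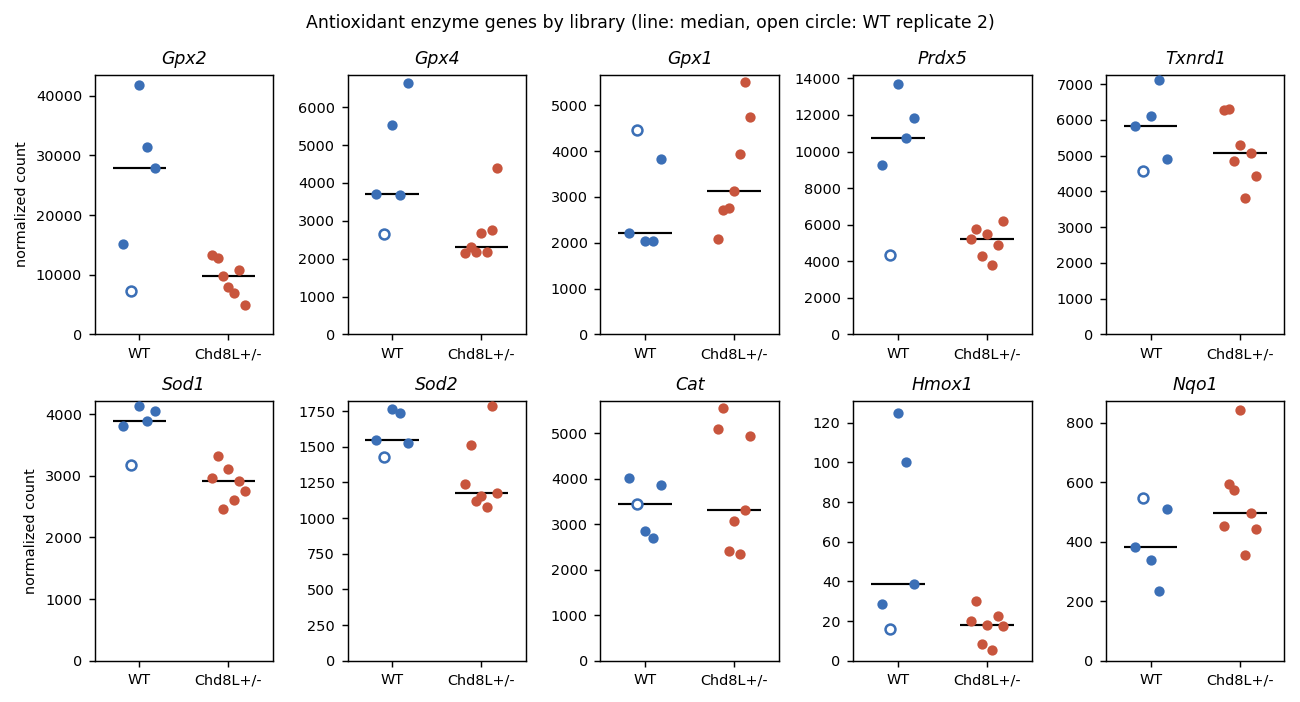
Normalized counts of each gene in the 5 WT libraries (blue) and the 7 libraries labelled Chd8L+/- (red), with the median of each group as a line, WT replicate 2 as an open circle and axes that start at 0. For Gpx2, Sod1 and Prdx5 the 4 filled WT points lie above every red point, and the open circle lies among the red points.

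Sod1, the copper-zinc enzyme of the cytosol, had normalized counts of 3808, 3182, 4132, 3886 and 4053 in WT replicates 1 to 5. In Chd8L+/- they were lowest at 2457, with a median of 2915 and a highest value of 3322. The 4 WT libraries other than replicate 2 were above every Chd8L+/- library, and replicate 2 lay within their range. The log2 fold change was -0.41 (SE 0.110, 95% interval -0.64 to -0.17, limma adjusted p = 0.121, exact permutation p = 0.00252), and -0.47 without WT replicate 2 (adjusted p = 0.00767). Sod1 varied less within WT than the other members that were lower, apart from Sod2.

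Sod2, the manganese enzyme of mitochondria, had normalized counts of 1546, 1429, 1762, 1736 and 1525 in WT. The Chd8L+/- libraries ranged from 1076 through a median of 1178 to 1786, and 5 of 7 were below every WT library. The remaining Chd8L+/- libraries, replicates 2 and 6, had 1512 and 1786 and lay within or above the WT range. This gave a log2 fold change of -0.32 (SE 0.134, 95% interval -0.61 to -0.04, limma adjusted p = 0.168, exact permutation p = 0.0429), and without WT replicate 2 it was -0.36 (adjusted p = 0.0715). Of their family, Ccs, the copper chaperone of Sod1, had a log2 fold change of -0.18 (SE 0.131), and the extracellular enzyme Sod3 was below the filter, at 8.39 ± 6.66 normalized counts in WT and 10.7 ± 9.14 in Chd8L+/-.

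Gpx2, the glutathione peroxidase that is typical of the gut epithelium, had normalized counts of 15075, 7267, 41683, 31444 and 27890 in WT. Among the Chd8L+/- libraries the lowest count was 4976, the median 9838 and the highest 13387. Over all 12 libraries its highest count was 8.38 times its lowest, against 23.9 times for Hmox1. WT replicate 2 lay within the Chd8L+/- range, and the other 4 WT libraries lay above it. The mean in Chd8L+/- was 38.6% of that in WT, and the log2 fold change was -1.21 (SE 0.389, 95% interval -2.04 to -0.38, limma adjusted p = 0.125, exact permutation p = 0.0227). Without WT replicate 2 it was -1.59 (adjusted p = 0.00474).

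Gpx4, which reduces lipid hydroperoxides within membranes, had normalized counts of 3722, 2648, 5528, 3688 and 6639 in WT. In Chd8L+/- the lowest was 2139, the median 2321 and the highest 4384. Chd8L+/- replicate 7 held that highest count and was above 3 of the 5 WT libraries, while the other 6 were between 2139 and 2759. Gpx4 had a log2 fold change of -0.71 (SE 0.231, 95% interval -1.20 to -0.21, limma adjusted p = 0.125, exact permutation p = 0.0227), and -0.88 without WT replicate 2 (adjusted p = 0.0119).

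Gpx1, the widely expressed cytosolic enzyme, did not share this direction. Its normalized counts were 2219, 4451, 2043, 2040 and 3818 in WT, and between 2076 and 5497 in Chd8L+/- with a median of 3121. The groups overlapped over most of their range, and WT replicate 2 was the highest WT library here, in contrast to Gpx2. For Gpx1 the log2 fold change was 0.29 (SE 0.267, 95% interval -0.28 to 0.87, limma adjusted p = 0.513, exact permutation p = 0.347), and without WT replicate 2 it was 0.47 (adjusted p = 0.196).

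The ratio of Gpx2 to Gpx1 per kilobase sets both peroxidases of the cytosol side by side in each library. It was 6.83, 1.64, 20.5, 15.5 and 7.34 in WT replicates 1 to 5, and in Chd8L+/- it ranged from 1.06 to 6.48 with a median of 2.56. Gpx2 exceeded Gpx1 in each of the 12 libraries on this scale. WT replicate 2 was again within the Chd8L+/- range and the other 4 WT libraries above it. In the glutathione peroxidase family, 5 genes were tested. Where 11.8% of all genes tested were lower at the unadjusted threshold, 3 of the 5 were: Gpx2, Gpx4 and Gpx7. The last, an enzyme of the endoplasmic reticulum, was at 35.0 ± 7.03 normalized counts in WT and 23.8 ± 8.01 in Chd8L+/- (log2 fold change -0.57, SE 0.264). Gpx3, the secreted form, had a log2 fold change of -0.08 (SE 0.270), and Gpx8 was below the filter.

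Prdx5, a peroxiredoxin of mitochondria, peroxisomes and cytosol that reduces peroxides with electrons from thioredoxin, had normalized counts of 9244, 4361, 13713, 10741 and 11858 in WT. The Chd8L+/- libraries ranged from 3804 to 6184, with a median of 5193. WT replicate 2 fell among them and the other 4 WT libraries were well above, so that the Chd8L+/- mean was 51.0% of the WT mean. Its log2 fold change was -0.89 (SE 0.242, 95% interval -1.41 to -0.37, limma adjusted p = 0.121, exact permutation p = 0.0101), and -1.17 without WT replicate 2 (adjusted p = 0.00255).

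In the peroxiredoxin family 7 genes were tested. Where 11.8% of all genes tested were lower at the unadjusted threshold, 3 of the 7 were. Besides Prdx5 these were Prdx1, the abundant cytosolic form, at 21571 ± 7217 normalized counts in WT and 11092 ± 2047 in Chd8L+/- (log2 fold change -0.90, SE 0.235), and Prdx2, a second cytosolic form, with a log2 fold change of -0.38 (SE 0.154). Prdx3, of mitochondria, had a log2 fold change of 0.01 (SE 0.145), Prdx4, of the secretory pathway, 0.49 (SE 0.315), and Prdx6, 0.24 (SE 0.240). Srxn1, which repairs overoxidized peroxiredoxins, had -0.44 (SE 0.280).

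Cat, the peroxide-splitting enzyme of peroxisomes, had normalized counts of 4020, 3451, 2847, 2697 and 3857 in WT. In Chd8L+/- the counts reached both below and above these, from 2343 to 5555 with a median of 3308. Replicates 1, 2 and 7 of Chd8L+/- were above every WT library, while replicates 3 and 5 were below each of them. For Cat the log2 fold change was 0.12 (SE 0.231, 95% interval -0.38 to 0.61, limma adjusted p = 0.781, exact permutation p = 0.646). Without WT replicate 2 it was 0.13 (adjusted p = 0.735), and it was -0.11 with the letter of the library name as a block, so no direction held.

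Txnrd1, the cytosolic selenoprotein that reduces thioredoxin with NADPH, had normalized counts of 5842, 4574, 6109, 7107 and 4920 in WT. The Chd8L+/- libraries ranged from 3809 to 6300 with a median of 5064, and the groups overlapped over most of their range. Txnrd1 had a log2 fold change of -0.15 (SE 0.156, 95% interval -0.49 to 0.18, limma adjusted p = 0.564, exact permutation p = 0.336). Without WT replicate 2 it was -0.23 (adjusted p = 0.298), and it was 0.09 after quantile normalization. Its substrate thioredoxin, Txn1, was at 18901 ± 3566 normalized counts in WT and 13424 ± 1590 in Chd8L+/- (log2 fold change -0.48, SE 0.162). Of 13 genes of the thioredoxin and glutaredoxin system tested, 2 were lower at the unadjusted threshold and 0 were higher. Of all genes tested 11.8% were lower, a share near that of this list, and 12.5% were higher. The 2 lower genes were Txn1 and the thioredoxin-like Txndc17 (-0.58, SE 0.180).

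Hmox1, the inducible heme oxygenase, had normalized counts of 28.4, 16.2, 125, 100.2 and 38.9 in WT. In Chd8L+/- they ranged from 5.24 to 30.2 with a median of 17.8. WT replicates 3 and 4 had the highest counts, and replicate 2 lay within the Chd8L+/- range. Hmox1 had a log2 fold change of -1.55 (SE 0.524, 95% interval -2.68 to -0.43, limma adjusted p = 0.127, exact permutation p = 0.0227), and -1.92 without WT replicate 2 (adjusted p = 0.0147). Hmox1 is also abundant in macrophages, and markers of macrophages and dendritic cells went the other way. Of these markers 10 of 10 had a positive log2 fold change, and 4 were higher at the unadjusted threshold, where 12.5% of all genes tested were. Their summed normalized counts were 1237 to 3244 in WT, the 3244 in WT replicate 2, and 1776 to 3884 in Chd8L+/-. Lyz2 alone was most of these sums, at 1345 ± 719 in WT and 1782 ± 537 in Chd8L+/-. The part of these cells in the Hmox1 counts was not tested.

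The wider heme and iron genes included further members at lower values. Of 9 tested, 4 were lower at the unadjusted threshold and 0 were higher, where 11.8% of all genes tested were lower and 12.5% higher. The 4 were Hmox1, the constitutive heme oxygenase Hmox2 (log2 fold change -0.43, SE 0.142), the ferritin light chain Ftl1 (-0.52, SE 0.211) and Alas1, the first enzyme of heme synthesis (-0.30, SE 0.132). The ferritin heavy chain Fth1 had a log2 fold change of -0.42 (SE 0.280).

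Nqo1, the quinone reductase and a classical NRF2 target, had normalized counts of 382, 546, 337, 236 and 509 in WT. In Chd8L+/- they ranged from 354 to 843 with a median of 496. The groups overlapped, with replicate 4 of Chd8L+/- above all other libraries and replicate 4 of WT below them. The log2 fold change was 0.43 (SE 0.230, 95% interval -0.06 to 0.92, limma adjusted p = 0.260, exact permutation p = 0.125), and 0.55 without WT replicate 2 (adjusted p = 0.0909). Nqo1 and Hmox1, both known as NRF2 targets, thus had log2 fold changes of opposite sign.

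**Figure D3:**
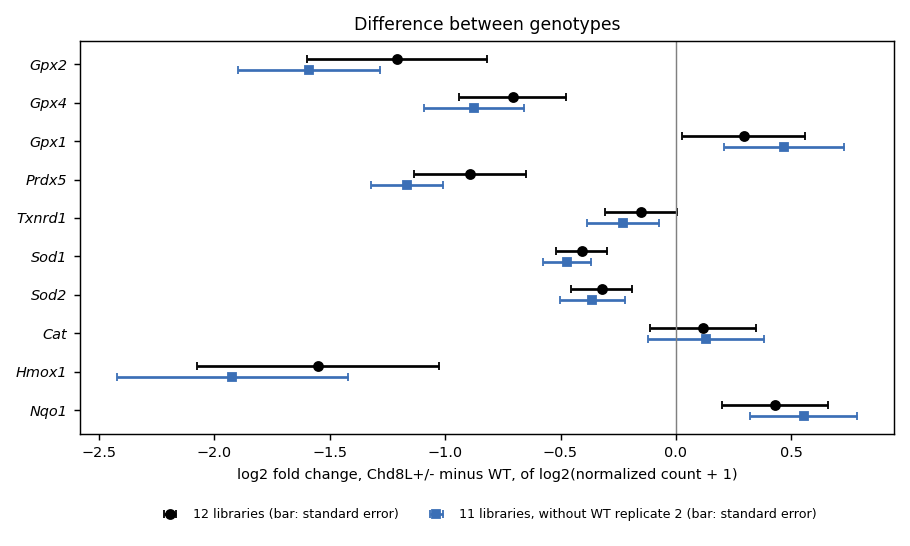
Log2 fold change of Chd8L+/- against WT for each gene, on the scale of log2(normalized count + 1), with standard errors as bars; black circles use all 12 libraries and blue squares leave out WT replicate 2. Gpx2, Gpx4, Prdx5, Sod1, Sod2 and Hmox1 lie to the left of 0 in both fits, from -0.32 for Sod2 to -1.55 for Hmox1 with 12 libraries, and Gpx1, Cat and Nqo1 lie to the right.

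Library names open with 1 of 4 letters, whose meaning the sources used here do not give, and 3 of these letters cover both genotypes. Within each of these 3 letters, mean log2 values were lower in Chd8L+/- for the 7 members with a negative log2 fold change over all 12 libraries, Txnrd1 among them. The letters only divide the same libraries, and the share of all genes that were lower within each letter was not computed. For Gpx2 the difference was -0.24 with letter A (2 WT and 2 Chd8L+/-, WT replicate 2 among them), -2.10 with letter B (2 WT and 1 Chd8L+/-) and -1.76 with letter C (1 WT and 3 Chd8L+/-). For Prdx5 it was -0.39, -1.57 and -1.38, and for Hmox1 -0.76, -3.35 and -2.34. Sod1 was more even, at -0.33, -0.61 and -0.43, and so was Sod2, at -0.39, -0.60 and -0.24. Gpx4 had -0.38, -1.19 and -1.21. Nqo1 was higher within each letter, at 0.60, 0.03 and 0.60. Gpx1 had -0.10, 0.49 and 0.62, and Cat -0.45, -0.46 and 0.67, so neither kept a sign. With 1 to 3 libraries on a side these are values with no test.

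Library by library, some members also varied together within a genotype, and not only members that were lower at the unadjusted threshold. After each genotype's mean was removed, correlations were computed over the 12 libraries for 45 pairs of members, with permutation p-values (100000 resamples within genotype) adjusted over the pairs; the points share libraries and cell composition. For 2 pairs Pearson's r had an adjusted p of 0.05 or less, and for 1 other pair, Sod2 and Hmox1, Spearman's rho did. Hmox1 and Prdx5 had r = 0.793 (permutation p = 0.00201, adjusted 0.0486) and Spearman's rho = 0.685 (permutation p = 0.0284, adjusted 0.0914). Sod1 and Hmox1 had r = 0.785 (permutation p = 0.00216, adjusted 0.0486) and rho = 0.748 (permutation p = 0.0084, adjusted 0.054). Without the 2 libraries farthest from the median of the first gene, r was 0.629 for the former pair and 0.664 for the latter, and without WT replicate 2 it was 0.778 and 0.689. Sod2 and Hmox1 had r = 0.697 (permutation p = 0.00695, adjusted 0.0521) and rho = 0.846 (permutation p = 0.00011, adjusted 0.00495), with r = 0.850 without the 2 farthest libraries and 0.687 without WT replicate 2. The correlations of Gpx2 with Prdx5 and with Sod1 rested more on WT replicate 2: without it, r fell from 0.727 to 0.310 for the former and from 0.680 to 0.446 for the latter. Txnrd1, which was not lower at the unadjusted threshold, had r = 0.774 with Hmox1 (permutation p = 0.00627, adjusted 0.0521), 0.676 with Gpx2 and 0.660 with Sod1. Gpx4, which was lower at that threshold, had 0.75 with Prdx5 but 0.41 with Hmox1, 0.42 with Sod1 and 0.26 with Gpx2. The share of all gene pairs with such values was not computed.

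Gpx1 had negative correlations with some of the other members. With Txnrd1, r was -0.76 (permutation p = 0.0102, adjusted 0.0658) and rho -0.79 (permutation p = 0.00551, adjusted 0.054), and r was -0.82 without the 2 libraries farthest from the median of Gpx1 and -0.70 without WT replicate 2. With Gpx2, r was -0.60 (permutation p = 0.0568, adjusted 0.183) and rho -0.69 (permutation p = 0.0246, adjusted 0.0852), and r was -0.58 without the 2 farthest libraries and -0.41 without WT replicate 2. Neither pair passed the adjusted threshold.

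**Figure D4:**
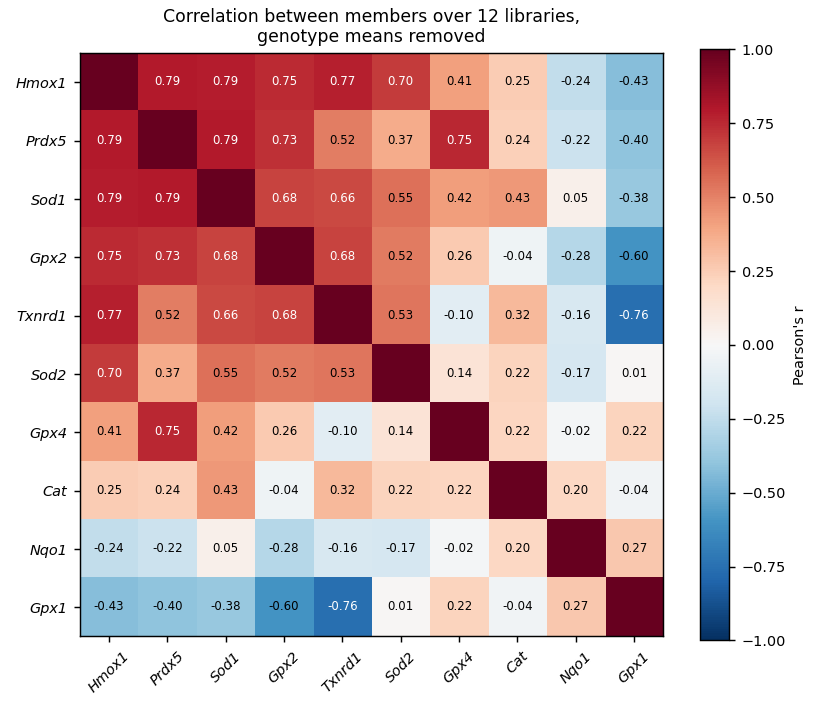
Pearson's r between the log2 values of each pair of members over 12 libraries after removal of genotype means, from -1 (blue) to 1 (red). Hmox1, Prdx5, Sod1 and Gpx2 form a block of positive values at upper left (0.793 for Hmox1 with Prdx5), of which Gpx2 with Prdx5 (0.727) was 0.310 without WT replicate 2, and Gpx1 has negative values with Txnrd1 (-0.76) and Gpx2 (-0.60). Txnrd1 has positive values with each gene of the block too, from 0.52 with Prdx5 to 0.774 with Hmox1.

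Over all genes tested, the one most like each member by the same measure (r over 12 libraries with genotype means removed, the highest of all genes and so given with no test) differed from member to member. It was Cycs, which encodes cytochrome c, for Prdx5 (r = 0.979), Rnf10 for Txnrd1 (0.986), Acp6 for Cat (0.970), Calml4 for Gpx4 (0.972) and Rufy1 for Gpx2 (0.946). For Gpx1 it was Tmem147 (0.947), for Hmox1 Tmem30b (0.951), for Sod1 Ppef2 (0.924), for Nqo1 Sfxn5 (0.943) and for Sod2 Ndrg3 (0.909). No gene was the closest for more than 1 member.

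The genes that supply these enzymes were counted from lists of known members, with 0 genes called at the adjusted threshold in each list. At the unadjusted threshold 11.8% of all genes tested were lower and 12.5% were higher. Of 13 genes of glutathione synthesis, reduction and breakdown, 1 was lower at this threshold, fewer than the share of all genes. It was Gss, glutathione synthetase, at 2482 ± 594 normalized counts in WT and 1642 ± 177 in Chd8L+/- (log2 fold change -0.57, SE 0.148). The rate-limiting ligase had log2 fold changes of 0.06 (SE 0.201) for its catalytic subunit Gclc and -0.53 (SE 0.251) for its modifier Gclm, and glutathione reductase Gsr had -0.34 (SE 0.280). Of 11 genes of NADPH supply, 4 were lower, among them malic enzyme Me1 (-1.86, SE 0.642) and the pentose phosphate enzyme Pgd (-0.57, SE 0.201), and 2 were higher, Mthfd1 (1.21, SE 0.412) and mitochondrial Idh2 (0.62, SE 0.235). Of 21 glutathione transferases, 4 were lower, with Gsto1 at -1.02 (SE 0.304) and Mgst3 at -0.62 (SE 0.163), and 1 was higher, Mgst1 at 0.74 (SE 0.291).

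NRF2 and its inhibitor did not pass either threshold at the RNA level. Nfe2l2, which encodes NRF2, was at 2960 ± 421 normalized counts in WT and 3176 ± 443 in Chd8L+/- (log2 fold change 0.10, SE 0.130), Keap1 had 0.04 (SE 0.110), and the repressor Bach1 had -0.06 (SE 0.274). Of 11 regulators tested 1 was lower at the unadjusted threshold, near the share of all genes tested (11.8%). It was the small Maf protein gene Maff (-0.77, SE 0.246). Of 34 known NRF2 targets 8 were lower at this threshold and 1 was higher, where 11.8% of all genes tested were lower and 12.5% higher. The higher one was Abcc1, a transporter of glutathione conjugates (0.68, SE 0.231). The median log2 fold change of the 34 was -0.27. Without WT replicate 2, limma called 10 of them lower and 1 higher, where 13.6% of all genes were called lower and 14.0% higher.

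Of 10 genes tested that make selenocysteine and insert it into the selenoproteins, 0 were lower and 2 higher at the unadjusted threshold, counts near the shares of all genes tested (11.8% lower and 12.5% higher): Sephs1, at 0.34 (SE 0.122), and Lrp8, a receptor for the selenium carrier Selenop, at 1.11 (SE 0.420). Of 16 selenoprotein genes other than the 4 members, 4 were lower and 0 higher, namely Selenom (-0.71, SE 0.262), the methionine sulfoxide reductase Msrb1 (-0.56, SE 0.162), Selenok (-0.52, SE 0.163) and Selenow (-0.39, SE 0.150). The selenoprotein members themselves were split between Gpx2 and Gpx4, which were lower at the unadjusted threshold, and Gpx1 and Txnrd1, which were not.

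**Figure D5:**
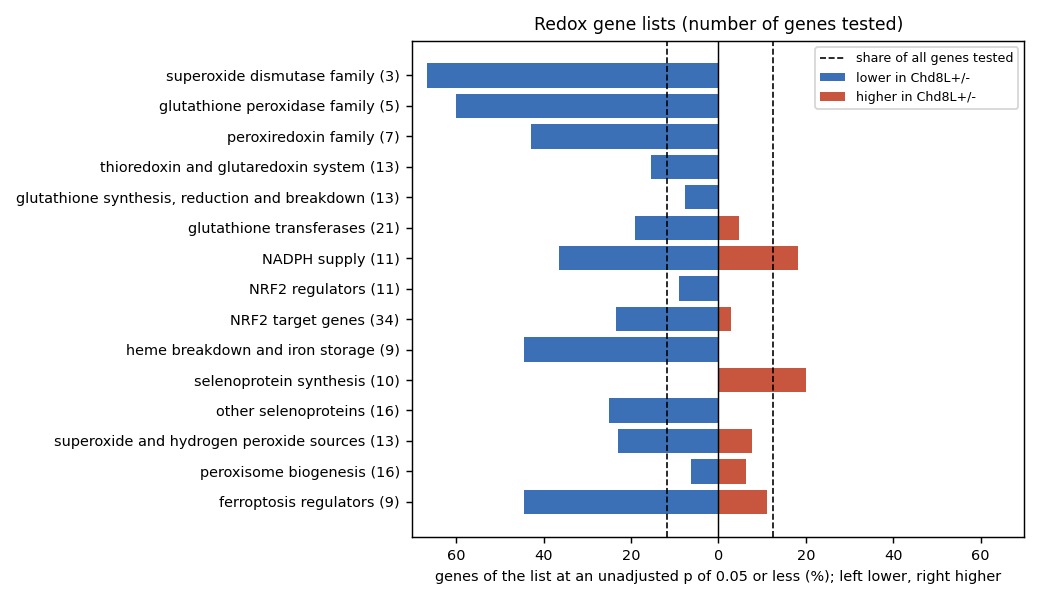
Share of the tested genes of each list (number in brackets) at the unadjusted threshold of limma, lower in Chd8L+/- to the left in blue and higher to the right in red; dashed lines mark the shares of all genes tested, 11.8% and 12.5%. Peroxiredoxins (3 of 7 lower) and heme and iron genes (4 of 9 lower) extend left of the dashed line, and genes of selenoprotein synthesis (2 of 10 higher) extend only to the right.

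Markers of cell types were read from the same fit, in which 0 markers passed the adjusted threshold and 11.8% of all genes tested were lower and 12.5% higher at the unadjusted threshold. Of 11 markers of crypt stem and proliferating cells 11 had a positive log2 fold change and 6 were higher at the unadjusted threshold, with summed normalized counts of 6017 to 22101 in WT and 13700 to 25026 in Chd8L+/-. The 22101 belonged to WT replicate 2. All 8 of 8 tuft cell markers were lower, with sums of 2119 to 19852 in WT (WT replicate 2 lowest) and 1213 to 8319 in Chd8L+/-, and Il25 was at 0 in at least 1 library. Of 12 enterocyte markers 10 had a negative log2 fold change, with a median of -0.36 over the 12. At the unadjusted threshold 2 were lower, near the share of all genes, and 0 were higher. Their sums were 434979 to 930989 in WT and 384279 to 839381 in Chd8L+/-. Of 6 stromal and endothelial markers 6 had a positive log2 fold change and 4 were higher at the unadjusted threshold. Their sums were 50 to 366 in WT, the 366 in WT replicate 2, and 77 to 1600 in Chd8L+/-. These genes were low, and Col1a2, Col3a1 and Pdgfra were at 0 in some libraries. The median log2 fold change of this list was 1.90, and 0.14 when at least 10 in every library was required. Markers of intestinal regions varied between libraries within each genotype. For 6 markers of the distal small intestine, sums were 13735 to 41474 in WT and 6239 to 63467 in Chd8L+/-. Among them, Fabp6 ranged from 2376 to 18642 in WT and from 42.8 to 22957 in Chd8L+/-. For 6 colon markers, sums were 6107 to 21043 in WT and 6686 to 28516 in Chd8L+/-. The part of these cell types and regions in the differences of the 10 enzymes was not tested.

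The genomic neighbourhood of the members bears on how their reads can be assigned. Gpx2 (chr12:76792333-76795554, minus strand) overlaps Fntb, Sod1 (chr16:90220754-90226329, plus strand) overlaps Scaf4, and Prdx5 (chr19:6906697-6910106, minus strand) overlaps Trmt112, each on the opposite strand. The use of strand in counting is not given in the sources used here, so reads of the overlapping parts may not have been told apart. These neighbours were far less abundant than the members in WT, at 207 normalized counts for Fntb, 647 for Scaf4 and 139 for Trmt112, and their log2 fold changes were -0.05, 0.17 and 0.02. Gpx1 (chr9:108338903-108340343), Gpx4 (chr10:80047166-80056439), Sod2 (chr17:13006846-13040063), Cat (chr2:103453849-103485160), Nqo1 (chr8:107388225-107403206) and Hmox1 (chr8:75093621-75100589) overlap no other annotated gene. Txnrd1 (chr10:82833951-82897712) overlaps Eid3 on its own strand and Gm38560, a noncoding RNA gene, and Gm47073, a gene model of unsettled type, on the other. Gpx2-ps1 and Gpx4-ps2, annotated pseudogenes of Gpx2 and Gpx4, had no row of their own, so how their reads were treated is uncertain.

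Promoters were searched for the core of the antioxidant response element, the DNA motif bound by NRF2 with a small Maf partner, spelled TGACNNNGC on either strand. RefSeq windows on GRCm38.p6 were found for 9 members, 14 windows in all as some genes have several starts, and Hmox1 had none. The motif was in 2 windows, 1 of Sod1 and 1 of Txnrd1, and in 12.4% of all 32851 promoters of the same length. Both windows are shown with the match in capitals, beside that of Gpx2, the most abundant member. The Sod1 window is chr16:90220512-90220811 (plus strand, match starting at -56 from the start site), the Txnrd1 window is chr10:82858956-82859255 (plus strand, match starting at -92) and the Gpx2 window is chr12:76795505-76795804 (minus strand, no match).
Sod1: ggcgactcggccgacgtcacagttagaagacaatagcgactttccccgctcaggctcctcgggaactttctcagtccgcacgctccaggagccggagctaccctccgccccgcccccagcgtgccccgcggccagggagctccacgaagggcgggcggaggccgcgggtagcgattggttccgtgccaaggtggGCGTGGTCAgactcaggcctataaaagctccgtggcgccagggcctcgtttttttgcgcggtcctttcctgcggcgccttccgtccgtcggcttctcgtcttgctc
Txnrd1: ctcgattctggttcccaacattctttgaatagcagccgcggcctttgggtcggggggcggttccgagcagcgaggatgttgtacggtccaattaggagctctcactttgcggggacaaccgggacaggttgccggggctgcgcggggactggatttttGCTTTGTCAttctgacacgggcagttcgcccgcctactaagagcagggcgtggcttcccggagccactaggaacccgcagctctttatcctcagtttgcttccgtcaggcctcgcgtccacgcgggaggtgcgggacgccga
Gpx2: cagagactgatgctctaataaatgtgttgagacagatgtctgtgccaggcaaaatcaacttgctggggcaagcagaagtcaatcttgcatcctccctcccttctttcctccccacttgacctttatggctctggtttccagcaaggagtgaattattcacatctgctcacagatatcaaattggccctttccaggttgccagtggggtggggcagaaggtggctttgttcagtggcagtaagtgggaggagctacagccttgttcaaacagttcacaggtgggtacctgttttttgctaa
Of the 2 genes with a match, Sod1 was among the members lower at the unadjusted threshold and Txnrd1 was not. A match describes letters in the window and not binding. The windows hold only bases close to annotated starts, so elements farther upstream, of Nqo1 or any other member, were not searched.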

How the data were processed

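Poly(A) RNA of gut epithelial cells from 12 mice (5 WT, 7 Chd8L+/-) was sequenced by the authors, who mapped reads to mm10 with Tophat2 and used the DESeq2 pipeline. The authors deposited, for each gene and library, a normalized signal, which is the gene count over a size factor. Which program and annotation counted the reads, and whether strand was used, is not given in the sources used here. Whole reads were recovered for 100% of the values (tolerance 0.01 of a read); in WT replicates 3 and 4 a read is worth nearly 1 (1.01 and 0.992), and these were recovered without a general check of the step. Totals were 15691662 to 20761315 reads per library, and counting error is largest for genes of few reads such as Hmox1. Columns were matched to the 12 mice through library names, with 0 columns of other samples. Of the gene names, 14050 matched GENCODE M21 (GRCm38) by symbol and 92 by synonym; the 21 names turned into dates by a spreadsheet were not used by name.

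Genotypes were compared with limma 3.58.1 (R 4.3.3; lmFit, eBayes with trend) on log2(value + 1), pseudocount 1, keeping genes whose mean was 10 or more, with Benjamini-Hochberg adjustment over 12808 genes and a threshold of 0.05. Fold changes on this scale understate those of low genes. Exact two-sided permutation tests ran over all 792 splits. Alternatives were pseudocounts of 0.5 and 5, quantile normalization, TMM rescaling, no filter on low values or a minimum of 10 in each library, DESeq2 1.42.0 and edgeR 4.0.16 (both on recovered reads), a block for the replicate number or for the letter that begins the library name, and each library left out in turn. The steps were tested on simulated data.

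The 10 genes and all gene lists were chosen with earlier results of these data known. The text names the 10 genes, the gene most like each by correlation, and from each list up to 4 genes with the largest log2 fold change among those at an unadjusted p of 0.05 or less; other list genes were named for their role after their values were seen.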

Additional observations from a re-analysis of the deposited data

Results flagged for a closer look

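Among the 20 groups of values (10 genes in 2 genotypes), 1 held a library far from the others by Dixon's criterion, and chance gives about 1 in 20. This was Gpx4 in Chd8L+/- replicate 7, at 12.1 on the scale of log2(normalized count + 1), or 4384 normalized counts, where the other 6 Chd8L+/- libraries were between 2139 and 2759. Without it the log2 fold change of Gpx4 was -0.84, against -0.71 with all 12 libraries, and the limma adjusted p was 0.113.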

How the results depend on the processing

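Genes called at the adjusted threshold numbered 3 with all 12 libraries, 5 in edgeR, 811 in DESeq2 (231 higher, 580 lower), 451 with the letter of the library name as a block (175 higher, 276 lower), and 0 to 3534 when libraries were left out 1 at a time, the highest without WT replicate 2 and 8 or fewer without any other. Members called numbered 0 with all 12 libraries, 5 in DESeq2, 1 with the letter block (Hmox1, adjusted p = 0.0494) and 0 to 5 on leaving out a library, the 5 without WT replicate 2. DESeq2 gave adjusted p-values of 0.01 for Gpx2, 0.0475 for Gpx4, 0.0114 for Sod1, 0.0194 for Hmox1 and 0.00589 for Prdx5. The median of the members was between -0.23 (quantile normalization) and -0.42 (letter block). Log2 fold changes of 8 members kept their sign in every alternative that gave a value; Txnrd1 was 0.086 after quantile normalization and Cat -0.11 with the letter block. The cause of these changes was not tested. With at least 10 in every library, Hmox1 was not tested.

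Replicate numbers did not pair the libraries: deviations of same-numbered libraries correlated at 0.189, -0.344, -0.129, -0.171 and -0.228. With the replicate number as a block, 0 genes were called (2327 at an unadjusted p of 0.05 or less) and 0 members, and the median of the members was -0.40.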

Other observations

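Genes that make superoxide or hydrogen peroxide, or that set the sensitivity of cells to lipid peroxidation, were also measured in these libraries. Of 13 sources of reactive oxygen tested, 3 were lower in Chd8L+/- and 1 was higher at an unadjusted limma p of 0.05 or less, where 11.8% and 12.5% of all genes were. Duox2, the dual oxidase of the gut surface, ranged from 3097 to 57477 normalized counts in WT and from 3982 to 23872 in Chd8L+/- (log2 fold change -1.47, SE 0.647; -2.19 without WT replicate 2), and its maturation factor Duoxa2 had a log2 fold change of -2.23 (SE 0.815; -3.08 without WT replicate 2). Dao, a peroxisomal oxidase of D-amino acids, was at 432 ± 78.0 normalized counts in WT and 213 ± 59.1 in Chd8L+/- (-1.04, SE 0.194). Nox1, the oxidase typical of the colon, was low, at 30.1 ± 33.9 in WT and 54.2 ± 27.9 in Chd8L+/- (1.28, SE 0.538).

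Of 9 regulators of ferroptosis tested, 7 had a negative log2 fold change and 2 a positive one. At the unadjusted threshold 4 were lower and 1 was higher, where 11.8% of all genes tested were lower and 12.5% higher. The lower ones were Gpx4, Ptgs2 (a prostaglandin synthase used as a marker of this form of cell death, log2 fold change -2.33, SE 0.858), Gch1 (the first enzyme of tetrahydrobiopterin synthesis, -0.95, SE 0.285) and Acsl4 (which loads polyunsaturated fatty acids into membranes, -0.90, SE 0.302). Dhodh, a mitochondrial enzyme of pyrimidine synthesis, was the higher one, at 0.67 (SE 0.300). None of these passed the adjusted threshold with all 12 libraries, and without WT replicate 2 limma called 4 of the 9 lower and 2 higher, where 13.6% of all genes were called lower and 14.0% higher.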
